A study of Mus musculus with 8 samples.

Results

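The HMGA, LIN28 and IGF2BP genes described here are 7 mouse genes: Hmga1, Hmga2, Lin28a, Lin28b, Igf2bp1, Igf2bp2 and Igf2bp3. They were grouped because Hmga2 was higher in the epidermis of K320E newborns, so the K320E difference of Hmga2 is a description here and carries no test. Of the 7 members, 4 had a probe set that names them alone, which made them 4 of the 22180 genes measured. These were Hmga2, Lin28a, Lin28b and Igf2bp3, each with 1 probe set. The probe set of Igf2bp1 also names the microRNA gene Mir3063 and was left out, and Hmga1 and Igf2bp2 are not analysed here because no probe set was named for them.

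The study profiled total epidermal RNA of newborn C57BL/6J mice (postnatal day 0) on 8 arrays. In 4 arrays, labelled K320E-TwinkleEpi (K320E below), the epidermis expresses a mutant of the mitochondrial DNA helicase Twinkle. Its expression depends on the K14 promoter, which is active in basal keratinocytes. The 4 control arrays carry the genotype label R26-K320E-TwinkleloxP/+, so the allele named there is present in the control label too. The labels do not say that the arrays come from separate animals, so the p-values rest on the spread among arrays, and how much of it is technical is not known.

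These genes are called oncofetal because most of them are active in the embryo, fall silent in most adult tissues and return in tumours. HMGA proteins bind AT-rich DNA and alter its shape for other factors. LIN28A and LIN28B bind precursors of the let-7 microRNAs and block their maturation, while mature let-7 represses HMGA2, LIN28B and the IGF2BP transcripts through sites in their 3′ ends. IGF2BP proteins bind messenger RNAs, among them those of Igf2, Myc and Actb, and protect or localise them.

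The let-7 family is shown by sequence because its seed, bases 2 to 8 counted from the 5′ end, is the part that pairs with target transcripts, several of the members among them. The sequences are mature 5′ arms from RefSeq (build GRCm38.p6), with the seed in capitals. Let-7a, let-7c and let-7f each have another gene with the same mature sequence (for let-7a it is Mirlet7a-2), and 1 locus is given for each.
mmu-let-7a-5p, chr13:48538239-48538260, minus strand: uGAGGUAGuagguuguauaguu
mmu-let-7b-5p, chr15:85707325-85707346, plus strand: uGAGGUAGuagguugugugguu
mmu-let-7c-5p, chr16:77599672-77599693, plus strand: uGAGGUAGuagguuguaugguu
mmu-let-7d-5p, chr13:48536078-48536099, minus strand: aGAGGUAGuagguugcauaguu
mmu-let-7e-5p, chr17:17830366-17830387, plus strand: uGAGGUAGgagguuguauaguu
mmu-let-7f-5p, chr13:48537889-48537910, minus strand: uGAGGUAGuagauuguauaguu
mmu-let-7g-5p, chr9:106178846-106178867, plus strand: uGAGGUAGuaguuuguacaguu
mmu-let-7i-5p, chr10:122985698-122985719, minus strand: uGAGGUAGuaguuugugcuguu
mmu-miR-98-5p, chrX:151913229-151913250, plus strand: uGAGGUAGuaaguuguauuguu
mmu-let-7j, chr3:140028281-140028304, plus strand: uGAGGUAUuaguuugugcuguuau
All 9 sequences whose genes were measured on the arrays share 1 seed. Of the 11 distinct let-7 family sequences in the table, 10 carry it, and the last line shows the exception, let-7j. A seed match in a target transcript therefore does not tell these 9 microRNAs apart.

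Before the members are described, the arrays themselves were checked. Twnk, which encodes Twinkle, lay between 8.91 and 9.28 in K320E arrays and between 6.55 and 6.95 in controls on the deposited log2 intensity scale (exact two-sided permutation test of 4 against 4 arrays, p = 0.0286, the smallest it allows). The keratinocyte markers fit the tissue label: Krt14 averaged 12.6 in K320E and 12.3 in controls, and Krt10 averaged 12.9 in both. Sex-linked transcripts set 2 control arrays apart. Control replicate 2 had both Xist (9.27) and the Y-linked list (mean 9.05) high, and control replicate 3 had both low (Xist 6.17, Y-linked mean 4.75). K320E replicate 3 was the 1 other array with a high Y-linked mean (8.64), beside a low Xist of 6.84. Values without both of these controls are given for Hmga2, where a call or a sign changed, and for some other genes. For genes without such a value, a change in size is not excluded.

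Hmga2, the chromatin architectural protein of growth and stem cells, was the 1 measured member with separated groups. Its log2 intensities were 7.89, 7.56, 7.84 and 7.90 in K320E replicates 1 to 4, against 6.89, 6.99, 6.91 and 6.99 in control replicates 1 to 4. Every K320E array was above every control, with a gap of 0.57 between the lowest K320E array, replicate 2, and the highest control. Means with their SD were 7.80 ± 0.16 over the 4 K320E arrays and 6.945 ± 0.055 over the 4 controls. The log2 fold change was 0.85 (SE 0.081, 95% interval 0.67 to 1.04), or 1.81-fold. In bulk epidermis, more cells with the transcript and more transcript per cell cannot be told apart.

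The Hmga2 difference kept its size when single arrays were left out. Its log2 fold change lay between 0.82 and 0.93 over the 8 fits that each omit 1 array, and was highest without K320E replicate 2. Without control replicates 2 and 3 together it was 0.86. A probe set for the transcribed pseudogene Hmga2-ps1, which lies outside the naming rule, had means of 6.50 ± 0.13 in K320E and 6.36 ± 0.21 in controls, and its groups overlapped (log2 fold change 0.14, SE 0.11, limma adjusted p = 0.636).

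**Figure D1:**
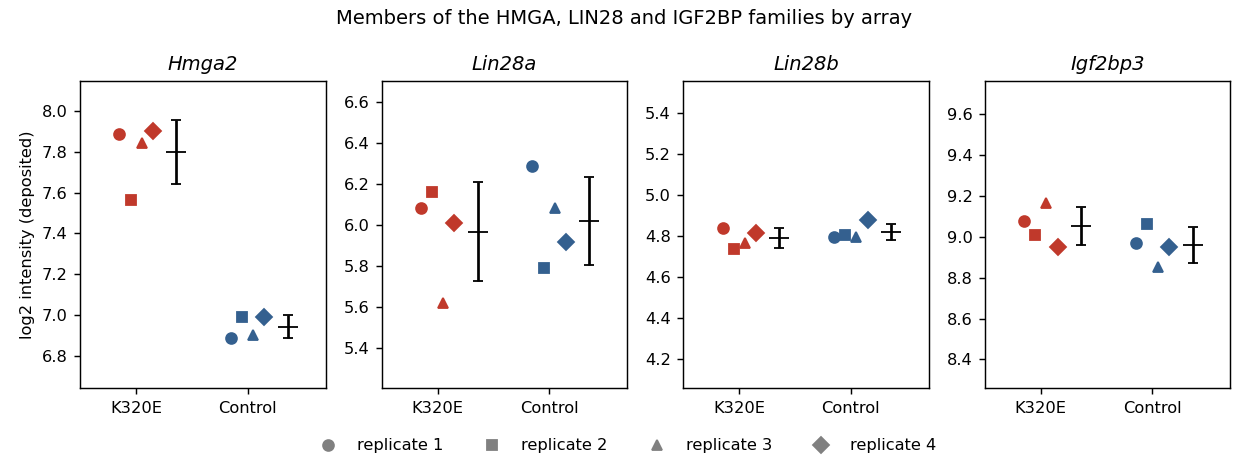
Deposited log2 intensity of each measured member in the 4 K320E arrays (red, left) and the 4 control arrays (blue, right), with bars for the mean ± SD. The panels span equal log2 ranges, so the separation of the Hmga2 groups (means 7.80 and 6.945) can be set against the overlap of both groups for Lin28a, Lin28b and Igf2bp3.

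Lin28a, which recruits terminal uridylyl transferases to precursor let-7, spanned 0.546 in K320E arrays and 0.501 in controls on the log2 scale, the widest spread of the 4 measured members. Its log2 intensities were 6.08, 6.16, 5.62 and 6.01 in K320E replicates 1 to 4, against 6.29, 5.79, 6.08 and 5.92 in control replicates 1 to 4. The groups overlapped almost fully, and the lowest array was K320E replicate 3. The log2 fold change was -0.05 (SE 0.14, 95% interval -0.37 to 0.26, limma adjusted p = 0.913). Its sign depended on single arrays: it was 0.07 without K320E replicate 3 and 0.04 without control replicate 1. Without control replicates 2 and 3 together the log2 fold change was -0.14.

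Lin28b, the paralog that can hold primary let-7 in the nucleus, gave a dim and even signal. Its log2 intensities were 4.84, 4.74, 4.77 and 4.82 in K320E replicates 1 to 4, against 4.80, 4.81, 4.80 and 4.88 in control replicates 1 to 4. Both groups lay close to the lowest value on any array (4.31), and the gene did not pass the filter on dim genes used as an alternative. No background or detection call came with the values, so these arrays do not show whether the transcript was present. The log2 fold change was -0.03 (SE 0.052, 95% interval -0.14 to 0.09, limma adjusted p = 0.86).

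Igf2bp3, an RNA-binding protein that stabilises fetal growth transcripts, was even across arrays. Its log2 intensities were 9.07, 9.01, 9.17 and 8.95 in K320E replicates 1 to 4, against 8.97, 9.06, 8.85 and 8.95 in control replicates 1 to 4. The highest array was K320E replicate 3 and the lowest control replicate 3, but the other 6 arrays were interleaved. The log2 fold change was 0.09 (SE 0.068, 95% interval -0.06 to 0.24, limma adjusted p = 0.611). For all 3 of these genes a p that misses the threshold does not show equal levels.

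Of the 4 measured members, 1 was called higher, with a limma p adjusted over all genes under 0.05, as were 0.685% of all genes. Its groups did not overlap, as held for 5.5% of all genes in this direction, 3.75% in the other and 9.25% in either. Since Hmga2 was the reason for choosing the members, nothing is read from this count. The other 3 members had overlapping groups.

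The genes of let-7 itself were the first list around the members. Of 17 let-7 genes and host transcripts listed, 16 were measured. Limma's test was passed by 0 (0.879% of all genes passed), and 1 had an unadjusted p under 0.05 (14.8% of all genes did). All 16 had overlapping groups, and their median log2 fold change was -0.03, against -0.00052 over all genes. The mean level of the list ran from 6.00 to 6.04 in K320E arrays and from 6.01 to 6.17 in controls. These probe sets report primary or precursor RNA at most, and mature let-7 was not measured.

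Single let-7 loci, named here outside the naming rule, showed the spread behind that median. The lowest fold change was at Mirlet7f-1, with log2 intensities of 5.14, 5.19, 5.11 and 5.67 in K320E and 5.30, 6.12, 5.87 and 5.59 in controls (log2 fold change -0.44, SE 0.18, limma adjusted p = 0.308). K320E replicates 1 to 3 lay below all controls and replicate 4 lay among them. Without control replicates 2 and 3 together the log2 fold change of Mirlet7f-1 was -0.17, so its size rested largely on these 2 arrays. The highest was at Mirlet7e, with a difference of 0.19 (SE 0.10, limma adjusted p = 0.435). Mirlet7i, on the same chromosome as Hmga2, had a log2 fold change of 0.11 (SE 0.078), and Mirlet7a-1 one of 0.06 (SE 0.18). Like Lin28b, Mirlet7f-1, Mirlet7e and Mirlet7i did not pass the filter on dim genes, so these arrays do not show whether their transcripts were present. The host genes Huwe1, a ubiquitin ligase with let-7f-2 and miR-98 in an intron, and Wdr82, which hosts let-7g, had log2 fold changes of 0.02 and 0.04 with overlapping groups.

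Other known let-7 targets did not pass the test. Of 25 measured targets besides the members, 0 were called by limma, where 0.879% of all genes were. An unadjusted p under 0.05 came with a positive fold change in 5 and with a negative one in 0. Over all 22180 genes, 1945 were higher and 1343 lower at that p. Positive fold changes numbered 19 of 25 (49.8% of all genes were positive), with a median of 0.06. Thbs1, which encodes the matrix protein thrombospondin 1 and was chosen after its value was seen, was the 1 target with separated groups. Its log2 intensities were 9.001, 8.61, 8.81 and 8.53 in K320E and 7.74, 7.79, 8.15 and 8.28 in controls (log2 fold change 0.75, SE 0.145, limma adjusted p = 0.0547). It passed without control replicate 4. The GTPase gene Nras and the cyclin gene Ccnd2, the uncalled targets with the highest mean signal on their probe sets, had log2 fold changes of 0.06 (SE 0.064) and 0.14 (SE 0.12).

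**Figure D2:**
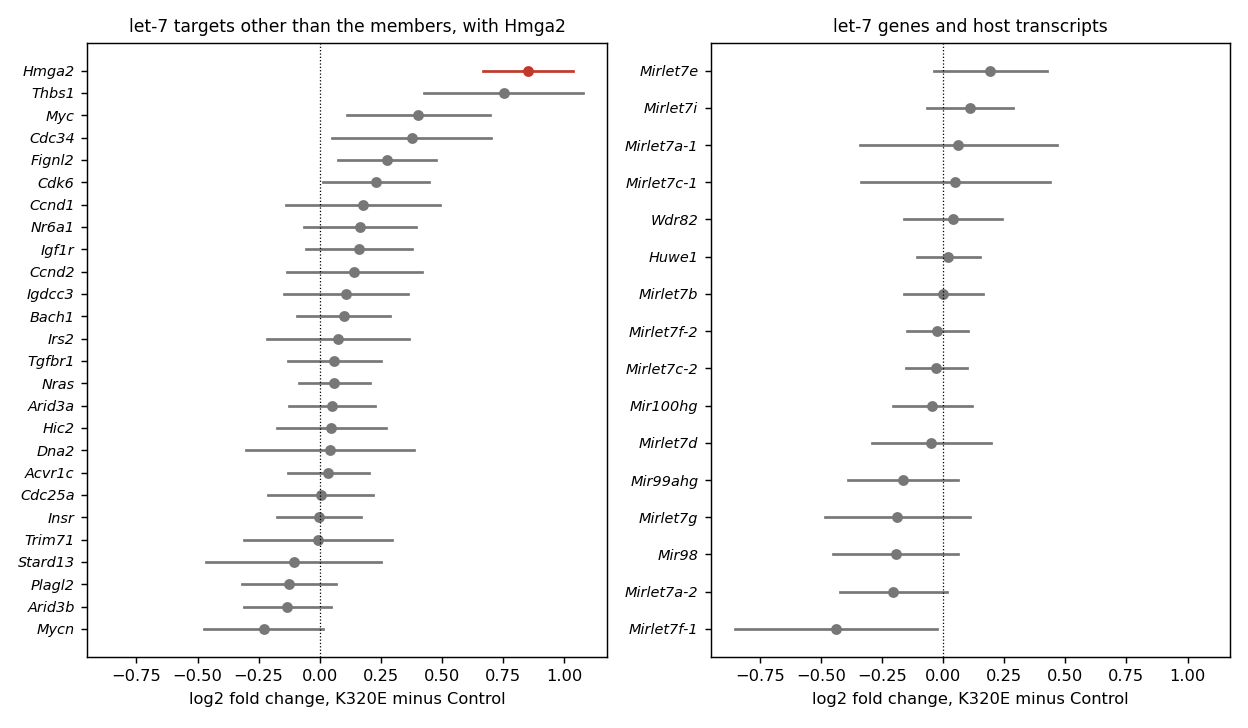
Log2 fold change, K320E minus control, with its 95% interval for the 25 let-7 targets outside the members and Hmga2 (left, Hmga2 in red) and for the 16 let-7 genes and host transcripts (right). Hmga2 (0.85) and Thbs1 (0.75) lie farthest to the right, while the let-7 genes lie on both sides of 0, from -0.44 to 0.19.

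The machinery that makes and uses microRNAs held 1 called gene. Ago4, an Argonaute protein that carries microRNAs, had log2 intensities of 6.82, 6.55, 6.66 and 6.79 in K320E, against 7.47, 7.23, 7.09 and 7.24 in controls. All K320E arrays were below all controls, and the level fell by 0.56 on the log2 scale (SE 0.094, limma adjusted p = 0.0347). The call was kept in 1 of the 8 fits that leave out an array, the one without control replicate 3, and the adjusted p reached 0.113. Without control replicates 2 and 3 together it was 0.0516. Over the 22 measured genes of the list, 0 rose and 1 fell, where 0.194% of all genes fell, and the median was -0.04. The RNA helicases Ddx3x and Ddx5, taken by the same rule, had log2 fold changes of 0.11 (SE 0.054) and -0.20 (SE 0.093), neither past the threshold. Ago2, another Argonaute gene named outside the rule, had separated groups in the other direction (log2 fold change 0.37, limma adjusted p = 0.133). In the list, separated groups were found in 1 gene higher and 1 lower, and an unadjusted p under 0.05 in 2 higher and 1 lower.

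The insulin-like growth factor axis, the best known outlet of the IGF2BP proteins, also held 1 called gene. Grb10, an imprinted adaptor that restrains insulin and IGF1 receptors, had log2 intensities of 7.42, 6.97, 7.35 and 7.27 in K320E and 6.27, 6.41, 6.38 and 6.16 in controls. The groups were apart, and Grb10 rose by 0.95 (SE 0.10, limma adjusted p = 0.00586), or 1.93-fold. It passed in all 8 fits that leave out an array (adjusted p up to 0.0316). Of the 17 genes measured, 1 rose (0.685% of all genes did) and 0 fell (0.194%), with a median of 0.14. The receptor adaptor Irs1 and the insulin receptor Insr, which is also a let-7 target, had log2 fold changes of -0.13 (SE 0.12) and -0.003 (SE 0.077).

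Igf2 itself did not pass. Its log2 intensities, given outside the naming rule, were 8.06, 7.98, 8.22 and 7.82 in K320E and 7.84, 8.07, 7.93 and 7.48 in controls, with overlapping groups (log2 fold change 0.19, SE 0.13, limma adjusted p = 0.568). Igfbp2, an IGF-binding protein also named outside the rule, was between 7.51 and 8.40 in K320E and between 7.15 and 7.43 in controls (log2 fold change 0.54, SE 0.18, limma adjusted p = 0.208).

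Transcripts bound by IGF2BP proteins had mostly positive fold changes with 0 calls. Of 13 measured, 11 were positive (49.8% of all genes were) and 0 were called (0.879% of all genes were). An unadjusted p under 0.05 was reached by 5, all higher, as by 1945 of all 22180 genes. Separated groups were found in 3, all higher (5.5% of all genes). The median was 0.18. The surface receptor Cd44 and cyclin G1, Ccng1, had log2 fold changes of 0.10 (SE 0.081) and 0.53 (SE 0.11, limma adjusted p = 0.0676). Actb, named outside the rule, was between 8.47 and 9.05 in K320E and between 7.78 and 8.30 in controls (log2 fold change 0.58, SE 0.145, limma adjusted p = 0.114). Some genes stand in more than 1 list: Myc and Ccnd1 are also let-7 targets, and Igf2 also belongs to the IGF axis.

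Genes downstream of HMGA proteins and regulators of epithelial to mesenchymal transition had 0 of 14 calls, with 1 gene higher and 1 lower at an unadjusted p under 0.05 (median 0.02). For this list and the next, the shares over all genes were 0.879% called and 14.8% at that p, in either direction. Snai2, which represses epithelial genes, and the mitotic cyclin Ccnb2 had log2 fold changes of 0.12 (SE 0.077) and 0.11 (SE 0.11). The other high mobility group proteins, which share the name but not the AT-hook, had 0 of 10 calls and 0 genes at an unadjusted p under 0.05 (median -0.01). Among them Hmgb1 and Hmgb2, which bend DNA, had log2 fold changes of -0.07 (SE 0.082) and -0.01 (SE 0.069).

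TGF-beta and RAS-ERK signals, which can induce Hmga2 in cultured cells, were read through a list each. In TGF-beta signalling 0 of 13 genes passed (0.879% of all genes did), with a median of 0.05. An unadjusted p under 0.05 was reached by 2, both higher, as by 1945 of all 22180 genes. The matrix protein gene Tgfbi and the signal transducer gene Smad2 had log2 fold changes of 0.02 (SE 0.12) and 0.12 (SE 0.076).

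Feedback genes of ERK signalling held 3 calls, all upward. Dusp5, a nuclear phosphatase of ERK, had log2 intensities of 7.998, 7.63, 7.95 and 7.71 in K320E and 7.21, 7.12, 7.15 and 7.19 in controls, and rose by 0.65 (SE 0.087, limma adjusted p = 0.0132). Phlda1 had 8.90, 8.90, 9.15 and 9.19 in K320E and 8.46, 8.44, 8.37 and 8.57 in controls, and rose by 0.58 (SE 0.085, limma adjusted p = 0.0207). Etv4, an ETS transcription factor, had 6.98, 6.79, 6.94 and 6.68 in K320E and 6.48, 6.41, 6.23 and 6.32 in controls, and rose by 0.49 (SE 0.084, limma adjusted p = 0.0388). In each of the 3 genes every K320E array was above every control.

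Of the 12 measured ERK feedback genes, 3 rose (0.685% of all genes did) and 0 fell (0.194%), and 6 had separated groups, all higher (5.5%). The median was 0.34, the highest of the 11 pathway lists, and the mean of the list ran from 7.91 to 8.07 in K320E arrays and from 7.62 to 7.73 in controls. The ERK phosphatase gene Dusp6 and the RAS inhibitor gene Spred1 had log2 fold changes of 0.28 (SE 0.17) and -0.005 (SE 0.14). With the mean over its probe sets in place of the one with the highest signal, Dusp6 was at 0.54 (SE 0.093, limma adjusted p = 0.0366), which made 4 calls in the list. The count of 3 fell to 0 without K320E replicate 3 and to 1 without control replicate 1 or control replicate 2, and it was 0 without control replicates 2 and 3 together. Dusp5 lost its call without K320E replicate 3 (limma adjusted p = 0.0506), Phlda1 passed in 4 of the 8 such fits and Etv4 in 1. Etv4 also lost its call with the replicate block (limma adjusted p = 0.0729), with every probe set tested (0.0524) and with the Y-linked level as a covariate (0.0576).

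Other oncofetal and embryonic genes had 0 of 16 calls, with 0 higher and 2 lower at an unadjusted p under 0.05 (median 0.06). Sox4, a transcription factor of progenitor cells, was at 9.79 ± 0.078 in K320E and 10.1 ± 0.048 in controls (log2 fold change -0.27, SE 0.059, limma adjusted p = 0.0813), and the imprinted gene Peg3 had a log2 fold change of 0.06 (SE 0.061). The cell cycle list had 0 of 18 calls, with 2 higher and 2 lower at an unadjusted p under 0.05 (median -0.01). Beside both lists, 0.879% of all genes were called and 14.8% had an unadjusted p under 0.05, in either direction. Pcna, the replication clamp, and Mki67 had log2 fold changes of -0.10 (SE 0.072) and 0.03 (SE 0.10).

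**Figure D3:**
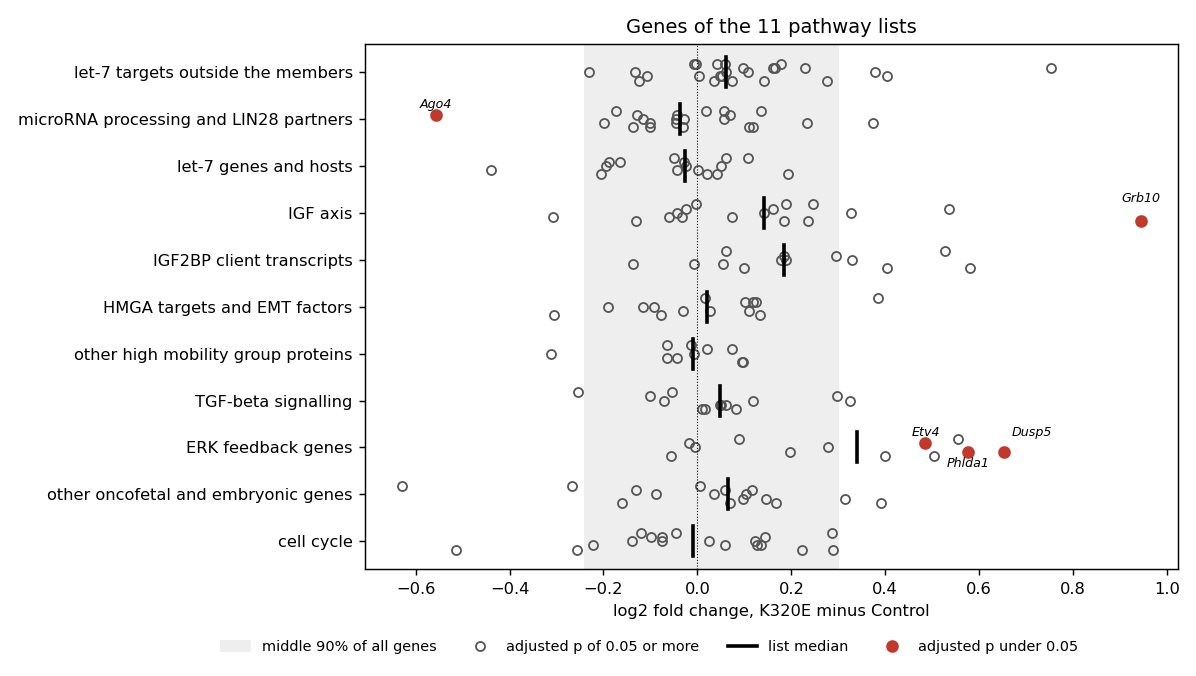
Log2 fold change, K320E minus control, of every measured gene in the 11 pathway lists, with a vertical bar at each list's median, filled red points for limma adjusted p under 0.05 and a grey band from the 5th to the 95th percentile of all genes (-0.24 to 0.30). The called genes are Ago4 on the left and Grb10, Dusp5, Phlda1 and Etv4 on the right.

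The genes whose levels followed Hmga2 most closely over the 8 arrays were chosen by Pearson correlation. They were Lce3d (r = 0.993), a late cornified envelope gene, Ptgs2 (r = 0.990), the inducible cyclooxygenase, and Slc7a3 (r = 0.986), a transporter of cationic amino acids. Epgn (r = 0.986), an EGF-family growth factor, and Cars (r = 0.985), a cysteinyl-tRNA synthetase, followed. The 8 points fall into the genotype groups, and both genes of each pair come from the same arrays, so these r values include the genotype difference and are a description. All 5 genes were called, as the choice by likeness to Hmga2 favours, with log2 fold changes of 2.22 for Lce3d, 2.45 for Ptgs2, 1.90 for Slc7a3, 2.76 for Epgn and 0.56 for Cars. K320E replicate 2, the lowest K320E array for Hmga2, was also the lowest for all 5 genes, and nothing is read from this, since they were chosen over the same arrays. After each genotype's mean was subtracted, r with Hmga2 lay between 0.709 for Epgn and 0.919 for Ptgs2, again among genes chosen for a high r.

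The closest genes to the other measured members were chosen in the same way. They had small differences between the genotypes, as a choice by likeness to members with small differences favours, and nothing is read from this. Piwil2, a germline Argonaute, followed Lin28a (r = 0.979), Ctnna3, a cadherin-associated protein, followed Lin28b (r = 0.962), and Zfp64, a zinc finger gene, followed Igf2bp3 (r = 0.951). Their log2 fold changes were -0.04, -0.04 and 0.07, with SE of 0.14, 0.054 and 0.056. Piwil2 and Ctnna3 did not pass the filter on dim genes, so these arrays do not show whether their transcripts were present.

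**Figure D4:**
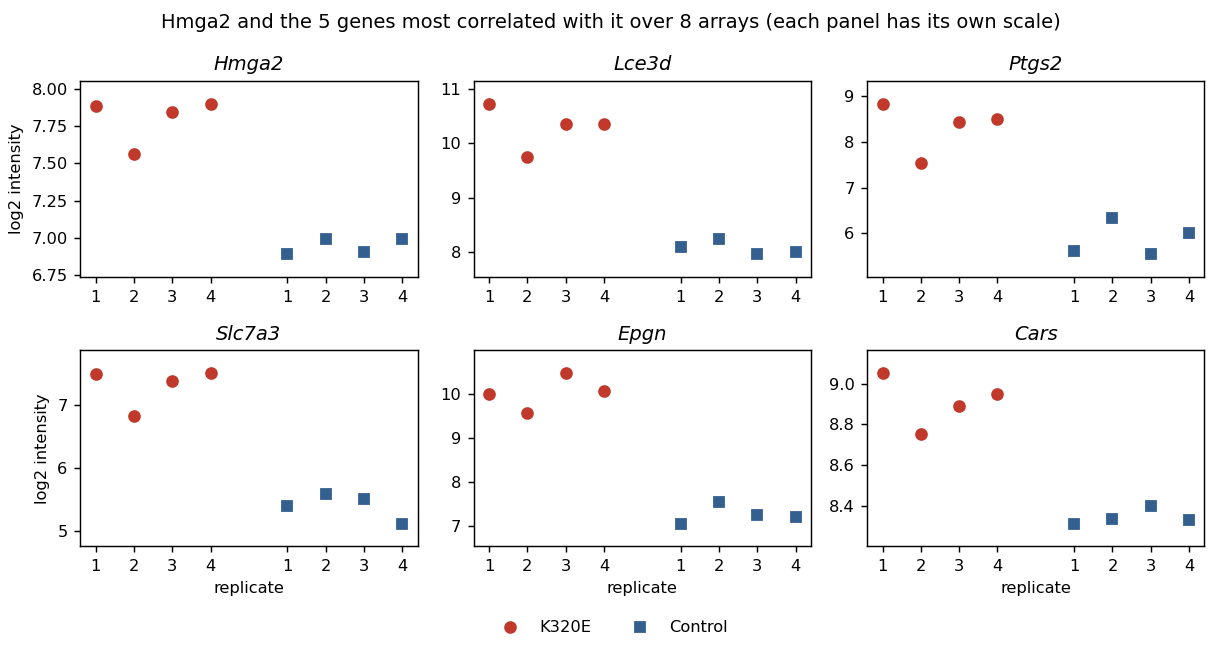
Deposited log2 intensity of Hmga2 and of the 5 genes with the highest correlation to it in each of the 4 K320E arrays (red circles, left) and the 4 control arrays (blue squares, right), each panel on its own scale. K320E replicate 2 is the lowest K320E array in all 6 panels.

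Genes beside the members on the chromosome did not pass the test. The 3 nearest measured protein-coding genes on each side of every measured member, 24 in all, gave 0 calls in limma (0.879% of all genes were called). An unadjusted p under 0.05 was reached by 3 of them (14.8% of all genes), and 1 had separated groups (9.25% of all genes). That gene was Prep, near Lin28b, higher in K320E by 0.42 (SE 0.095) with the lowest limma adjusted p of the 24, 0.0896. Next to Hmga2, Tmbim4 had a log2 fold change of 0.07 (SE 0.10) and Msrb3 one of 0.06 (SE 0.09). Helb, Irak3, Lemd3 and Wif1, the other 4 on those sides, ran from -0.19 to 0.10. These neighbours were taken by position and not by the naming rule.

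Marker lists of other cell types were read beside Hmga2 and the lists above. Over all genes, 0.879% were called and 14.8% had an unadjusted p under 0.05, both in either direction. The hair structure list averaged 7.30 in K320E and 8.14 in controls, with single controls as high as 8.95. It had 0 of 15 genes called, 10 lower at an unadjusted p under 0.05 and a median of -0.79. Tchh and Krt25, genes of the inner root sheath, had log2 fold changes of -1.32 (SE 0.30) and -1.16 (SE 0.34), and both passed without control replicates 2 and 3 together (limma adjusted p = 0.0272 and 0.0154). Skeletal muscle markers ran from 6.85 to 7.89 in K320E and from 6.41 to 7.15 in controls, with a median of 0.42 and 0 of 10 called (2 higher at an unadjusted p under 0.05). The fast muscle genes Tnnt3 and Mylpf had log2 fold changes of 1.03 (SE 0.465) and 1.08 (SE 0.461). Mast cell markers ran from 6.04 to 6.66 in K320E and from 5.69 to 6.21 in controls, and neutrophil and macrophage markers from 6.38 to 6.62 in K320E and from 6.20 to 6.58 in controls.

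Lists of other skin cells overlapped between the genotypes. Array means were 7.74 to 8.27 in K320E and 7.56 to 8.17 in controls for fibroblasts, and 5.50 to 6.07 in K320E and 5.62 to 5.65 in controls for endothelium. Adipocyte markers ran from 6.56 to 7.64 in K320E and from 6.52 to 6.77 in controls, and melanocyte markers from 8.35 to 8.71 in K320E and from 8.63 to 9.10 in controls. Hair matrix markers ran from 7.18 to 7.52 in K320E and from 7.19 to 7.47 in controls, and suprabasal keratinocyte markers from 11.29 to 11.41 in K320E and from 11.26 to 11.45 in controls. None of these lists held a called gene in limma, and an unadjusted p under 0.05 was reached by 2 fibroblast, 1 adipocyte, 3 melanocyte and 1 suprabasal gene. K320E replicate 3 was the highest of the 8 arrays for fibroblast (8.27), endothelial (6.07) and adipocyte (7.64) markers. It was also the highest for skeletal muscle (7.89) and mast cell markers (6.66). The same array had the high Y-linked mean, and the fewest genes were called without it. Whether its tissue content bears on those calls was not tested.

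Called genes among the cell type lists were in the Langerhans and dendritic list and in the T cell list. In the Langerhans and dendritic list (array means 6.51 to 6.62 in K320E and 6.90 to 7.03 in controls) 2 of 6 genes fell, where 0.194% of all genes did. They were the MHC class II genes H2-Ab1, by 0.98 (SE 0.13, limma adjusted p = 0.0129), and H2-Aa, named outside the rule, by 1.05 (SE 0.0805, limma adjusted p = 0.00206). H2-Ab1 lost its call without K320E replicate 3 (limma adjusted p = 0.0506) and without control replicates 2 and 3 together (0.0552). Epcam had a log2 fold change of -0.18 (SE 0.067). H2-Eb1, Cd207 and Itgax, named outside the rule, had overlapping groups. Their log2 fold changes were -0.19, -0.07 and -0.03 (limma adjusted p = 0.252, 0.687 and 0.88), so the shift of the list mean rests mainly on H2-Aa and H2-Ab1. The T cell list had array means of 6.29 to 6.87 in K320E and 6.74 to 7.13 in controls, and 1 of its 4 genes was called (0.879% of all genes were). At an unadjusted p under 0.05, 1 was higher and 3 were lower (14.8% of all genes passed in either direction), and the list's median was -0.57. In it Thy1 rose by 0.69 (SE 0.13, limma adjusted p = 0.0495) and Cd3g had a log2 fold change of -1.19 (SE 0.32). Cd3d and Cd3e, named outside the rule, were at -0.75 (limma adjusted p = 0.0645) and -0.38. Thy1 passed in 1 of the 8 fits that leave out an array. Basal keratinocyte genes averaged 10.1 in K320E and 9.92 in controls, with 0 of 9 called and 5 higher and 1 lower at an unadjusted p under 0.05. Within that list Krt14 had a log2 fold change of 0.27 (SE 0.075) and Krt15 one of -0.31 (SE 0.079). With the hair structure level as a covariate the log2 fold change of Hmga2 was 0.88, and with the skeletal muscle level 0.81. The hair covariate left 2 genes called in all, Twnk and Epgn, and Grb10 was then at 0.82 (limma adjusted p = 0.14). The hair level ran from 7.071 to 7.502 in K320E arrays and from 7.503 to 8.953 in controls. Its groups are apart only just, so hair level and genotype are confounded in part in this fit. The SE of Hmga2 was 0.12 with the hair covariate, against 0.081 without it. Whether hair level accounts for the lost calls was not tested. The part of these cells in the lists was not tested.

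**Figure D5:**
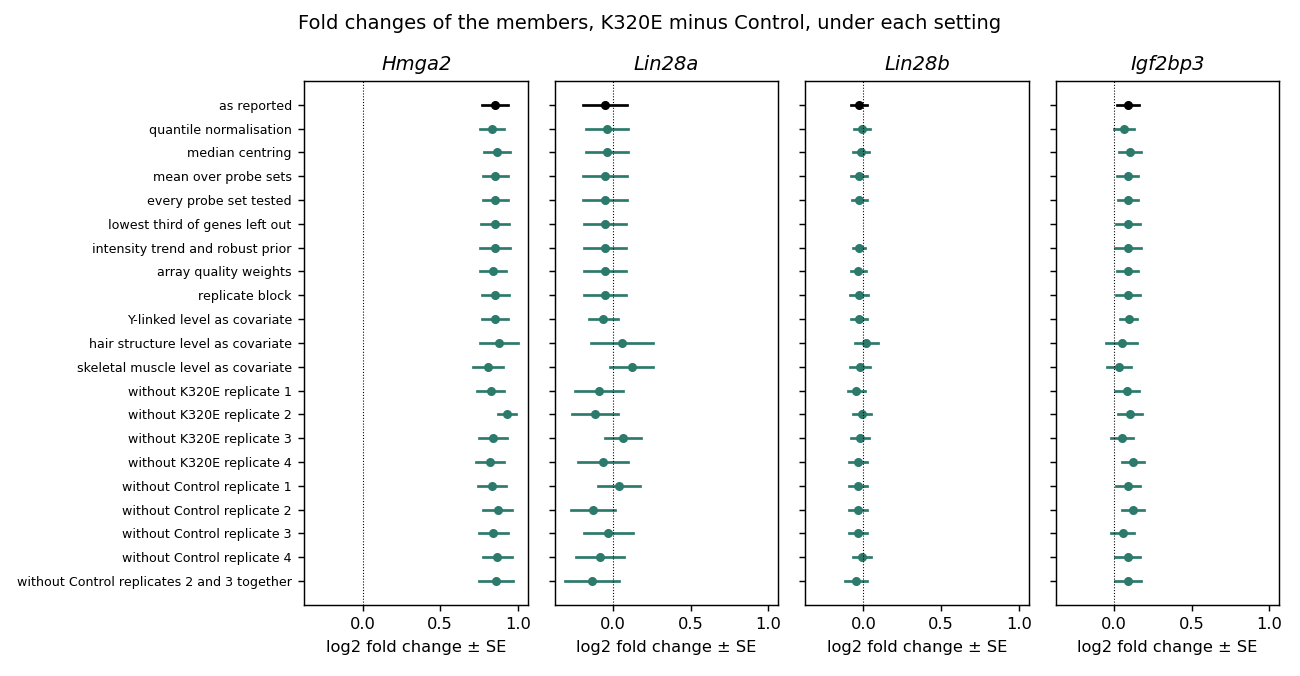
Log2 fold change, K320E minus control, with its SE for each measured member as reported (black, top) and under each alternative (green). Hmga2 stays between 0.81 and 0.93, while Lin28a, Lin28b and Igf2bp3 stay close to 0, and Lin28b has no value under the filter on dim genes.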

How the data were processed

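Total RNA from newborn epidermis was extracted with the Maxwell 16 LEV simplyRNA kit, amplified with NuGEN Applause WT-Amp Plus ST and labelled with biotin, per the labels' protocols. The authors deposited 1 log2 intensity per probe set and array (33793 probe sets, 8 arrays, values 4.31 to 13.13, array medians 6.06 to 6.11). How they were background-corrected and normalised is not given in the sources used here. The number of arrays limits the precision. Of the probe sets, 23521 name 1 gene, 1814 several and 8458 none. Each of the 22180 genes was read from its single-gene probe set with the highest mean.

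limma 3.58.1 (R 4.3.3) was fitted with genotype as the 1 term, and p-values were adjusted over all genes by the Benjamini-Hochberg method (threshold 0.05). On simulated data, 72.5% of 1.5-fold and 94.7% of 2-fold changes were recovered, and 9 unchanged genes were called. Each gene was drawn independently there, so differences that many genes of an array share were not simulated. Members and lists were chosen with earlier results of these data known. Of 304 list entries, 282 were matched. Named genes are all members, the called genes of each pathway list, the 2 uncalled ones with the highest mean signal, 2 markers per cell type and the genes that correlate best with a member. Arrays have no detection calls, so no gene is called absent. Alternatives were 4 ways of scaling and summarising, a filter on dim genes, 2 limma settings, a replicate block, 3 covariates and the leaving out of arrays. The let-7 sequences come from RefSeq. The Hmga2 promoter carries no measurement in this study and is not described.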

Additional observations from a re-analysis of the deposited data

Results flagged for a closer look

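In groups of 4 arrays, a single array stood far from the other 3 in 5 of the 118 gene-and-group pairs tested over 59 genes, where chance alone gives about 1 in 20. Among the members this was Lin28b in control replicate 4, at a log2 intensity of 4.878, with the other controls at 4.80 to 4.81. Ctnna3, the gene that followed Lin28b most closely, stood apart in the same array at 5.388, with the other controls at 5.27 to 5.29. Nothing is read from this, since Ctnna3 was chosen for its correlation with Lin28b over these same arrays. Neither gene passed the filter on dim genes. Mirlet7f-1, which also did not pass that filter, was at 5.674 in K320E replicate 4, and the other K320E arrays were at 5.11 to 5.19. Tgfbi was at 10.61 in K320E replicate 1, with the other K320E arrays at 10.15 to 10.20, and at 10.5 in control replicate 3, with the other controls at 10.17 to 10.22.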

How the results depend on the processing

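All values are limma fits of K320E against controls, and where a value moved the cause was not tested. The 152 genes higher in K320E and the 43 genes lower in K320E became 84 and 30 with the replicate block, 108 and 25 with the Y-linked level as a covariate, 22 and 7 with the skeletal muscle level and 2 and 0 with the hair structure level. A filter on dim genes, which tests fewer genes, gave 222 and 66, and leaving out 1 array gave 44 to 147 higher and 9 to 33 lower genes, fewest without K320E replicate 3. Same-numbered arrays correlated at -0.065 to 0.137 in their deviations, so the numbers were not taken as pairs, and Hmga2 had the same log2 fold change of 0.85 with the block. With the hair structure level Hmga2 was at 0.88 (SE 0.12).

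Calls per list moved as follows. The let-7 targets had 1 call in place of 0, and so did the IGF2BP clients, with the filter on dim genes and with the intensity trend and robust prior, and the let-7 targets had 0 to 1 when 1 array was left out. The microRNA processing list had 0 in place of 1 with the Y-linked, hair and muscle covariates and without control replicates 2 and 3 together, and 0 to 1 when 1 array was left out. The IGF axis had 0 with the hair covariate. The ERK feedback genes had 0 with the hair and muscle covariates and without control replicates 2 and 3 together, 4 with the mean over probe sets, 2 with the replicate block, with every probe set tested and with the Y-linked covariate, and 0 to 2 when 1 array was left out.

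The log2 fold changes that turned sign were of uncalled genes close to 0. With the hair covariate these were Lin28a (0.058), Lin28b (0.018), Huwe1 (-0.037), Wdr82 (-0.016), Cd44 (-0.020), Snai2 (-0.055), Hmgb1 (0.088), Hmgb2 (0.032), Tgfbi (-0.020), Spred1 (0.10), Piwil2 (0.016), Ctnna3 (0.023), Igf2 (-0.14) and Mirlet7a-1 (-0.35). With the muscle covariate they were Lin28a (0.12), Huwe1 (-0.017), Wdr82 (-0.046), Hmgb1 (0.015), Tgfbi (-0.046), Spred1 (0.011), Piwil2 (0.11), Igf2 (-0.0061) and Mirlet7a-1 (-0.12). Median centring turned Insr (0.0097), Hmgb2 (0.0062) and Spred1 (0.0078), quantile normalisation Tgfbi (-0.0077), array quality weights Wdr82 (-0.0034), Tgfbi (-0.059) and Spred1 (0.072), and the mean over probe sets Irs1 (0.030). Without control replicates 2 and 3 together Ccnd2 (-0.0076), Insr (0.023) and Mki67 (-0.13) turned. Leaving out 1 array spanned -0.13 to 0.065 for Lin28a, -0.038 to 0.10 for Wdr82, -0.053 to 0.062 for Insr, -0.038 to 0.047 for Hmgb2, -0.091 to 0.094 for Tgfbi, -0.11 to 0.11 for Spred1, -0.051 to 0.11 for Mki67, -0.10 to 0.078 for Piwil2 and -0.059 to 0.19 for Mirlet7a-1. Over the 55 other named genes, 975 values kept their direction and side of the threshold, 61 lost a call, 9 gained one and 50 turned sign.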
